A study of Homo sapiens with 12 samples.

Results

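The complement genes described here are 8 of the 19923 protein-coding genes counted in the deposited files. They are C7, C1R, C1S, C3, SERPING1, CD46, CD55 and CD59, found in the files by gene symbol. C7 was chosen from the NGP libraries because it rose there more than almost any other gene, and the rest were chosen as genes of the same pathway. For that reason the NGP response of these genes is given as a description with no test. Their response is tested in SK-N-BE2, whose libraries were not used to choose C7. Members and lists were set with earlier results of these data known, so the p-values may not be independent of that choice. The lines with DMSO are also compared by test for the genes other than C7, and that comparison shares the NGP DMSO libraries with the choice of C7. Further genes of the pathway, which are not among the 8, are tested in both lines.

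RNA was sequenced from a pair of established lines of human neuroblastoma, SK-N-BE2 and NGP, both with amplified MYCN and labelled WT in genotype. Cells of each line were kept for 6 days with STM2457, a small molecule that blocks the METTL3 enzyme which writes N6-methyladenosine onto messenger RNA, or with the solvent DMSO. SK-N-BE2 cells received 12 µM and NGP cells 1 µM of STM2457. Each of the 4 groups had 3 libraries, 12 in all, and the labels do not say whether replicates were separate cultures, so p-values measure the spread between these libraries only. The lines also differed in sequencing run and dose, so line, run and dose cannot be told apart.

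Complement is a cascade of proteins that marks cells and microbes and can punch pores into their membranes. In the classical route the proteases C1r and C1s are switched on within the C1 complex, C3 is cleaved and deposited on the target, and C6, C7 and later components assemble the membrane attack complex. C1 inhibitor, the product of SERPING1, blocks C1r and C1s, while the membrane proteins CD46, CD55 and CD59 protect a cell from its own complement. Tumour cells often carry these membrane regulators, which limit killing by antibodies that recruit complement.

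The libraries held between 47242379 and 58159937 counted reads each. DMSO replicate 1 of NGP stood apart from its group, and the common coefficient of variation between NGP replicates was 0.155 with it and 0.0944 without it, against 0.107 in SK-N-BE2. Of 10 genes that mark adrenergic neuroblastoma, 9 reached 1 CPM (reads per 1000000 counted reads, scaled by TMM) in each group. In the NGP libraries with DMSO the exception was TH, at 0.156 to 0.913 CPM. The summed level of 6 hepatocyte markers, the cells that make most complement of the blood, was at most 0.420 CPM in any library.

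The sequence just before the start of C7 is shown because C7 is the gene on which the choice turned. It is the 250 bases before the RefSeq start on GRCh38.p14, chr5:40909247-40909496, read 5′ to 3′ on the plus strand, with motif matches in capitals.
C7: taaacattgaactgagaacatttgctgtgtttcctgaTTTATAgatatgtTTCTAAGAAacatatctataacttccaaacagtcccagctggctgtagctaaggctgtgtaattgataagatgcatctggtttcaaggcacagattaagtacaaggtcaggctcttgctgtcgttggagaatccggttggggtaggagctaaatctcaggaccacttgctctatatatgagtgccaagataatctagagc
The C7 window had a GC content of 40.8%, with a median of 58.0% over 35116 promoters of the same length. Both strands were searched for 5 motifs: the TATA box as TATAAA, the CCAAT box by its name's letters, the GC box as GGGCGG, a palindrome of the STAT type as TTCNNNGAA and one of the AP-1 type as TGANTCA. In the window shown no match of a motif overlapped another. C7 held TATAAA on the reverse strand, starting 213 bases before the gene start, and TTCNNNGAA, starting 200 bases before it. Of all promoters, 10.7% held TATAAA, 32.0% CCAAT, 42.6% GGGCGG, 6.57% TTCNNNGAA and 6.57% TGANTCA. Matches are letters only, and binding of a factor was not measured. The windows of C1R, CD46, CD55 and CD59 were also searched. CD59 held TTCNNNGAA as well, starting 184 bases before its start, with 1 CCAAT and 2 GGGCGG. CD46 held 1 CCAAT and 3 GGGCGG, CD55 held 1 GGGCGG, and C1R held none of the motifs. Counted exons covered 100% of the CD55 window, 38% of that of C1R and 27.2% of that of CD59. Those parts therefore lie within the gene as counted and not before it. The promoters of the other members are not shown.

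C7, which joins the membrane attack complex and anchors it in the membrane, was the member with the widest change. It lies at chr5:40909497-40984643 on the plus strand, with 18 exons in its canonical transcript. In NGP with DMSO the 3 libraries held 0.973, 0.509 and 1.32 CPM of C7, and with STM2457 they held 38.4, 30.4 and 33.7 CPM. The NGP groups were far apart: 143 C7 reads were counted over the DMSO libraries and 4926 over the STM2457 libraries. The log2 fold change was 5.16 (SE 0.29), and C7 ranked 1 of 9810 genes with at least 10 CPM in the higher group, which is the value it was chosen for. In SK-N-BE2 the DMSO libraries held 107, 107 and 95.4 CPM, and the STM2457 libraries 142, 142 and 161 CPM. C7 was thus well expressed in SK-N-BE2 without STM2457, and all STM2457 libraries lay above all DMSO libraries. The SK-N-BE2 rise was 1.40-fold (log2 0.49, SE 0.09, edgeR adjusted p = 0.000386). Its level ran from SK-N-BE2 with STM2457 (148 ± 10.9 CPM, SD, n = 3) through SK-N-BE2 with DMSO (103 ± 6.83) and NGP with STM2457 (34.2 ± 4.01) down to NGP with DMSO (0.935 ± 0.408). No neighbours in that order overlapped.

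**Figure D1:**
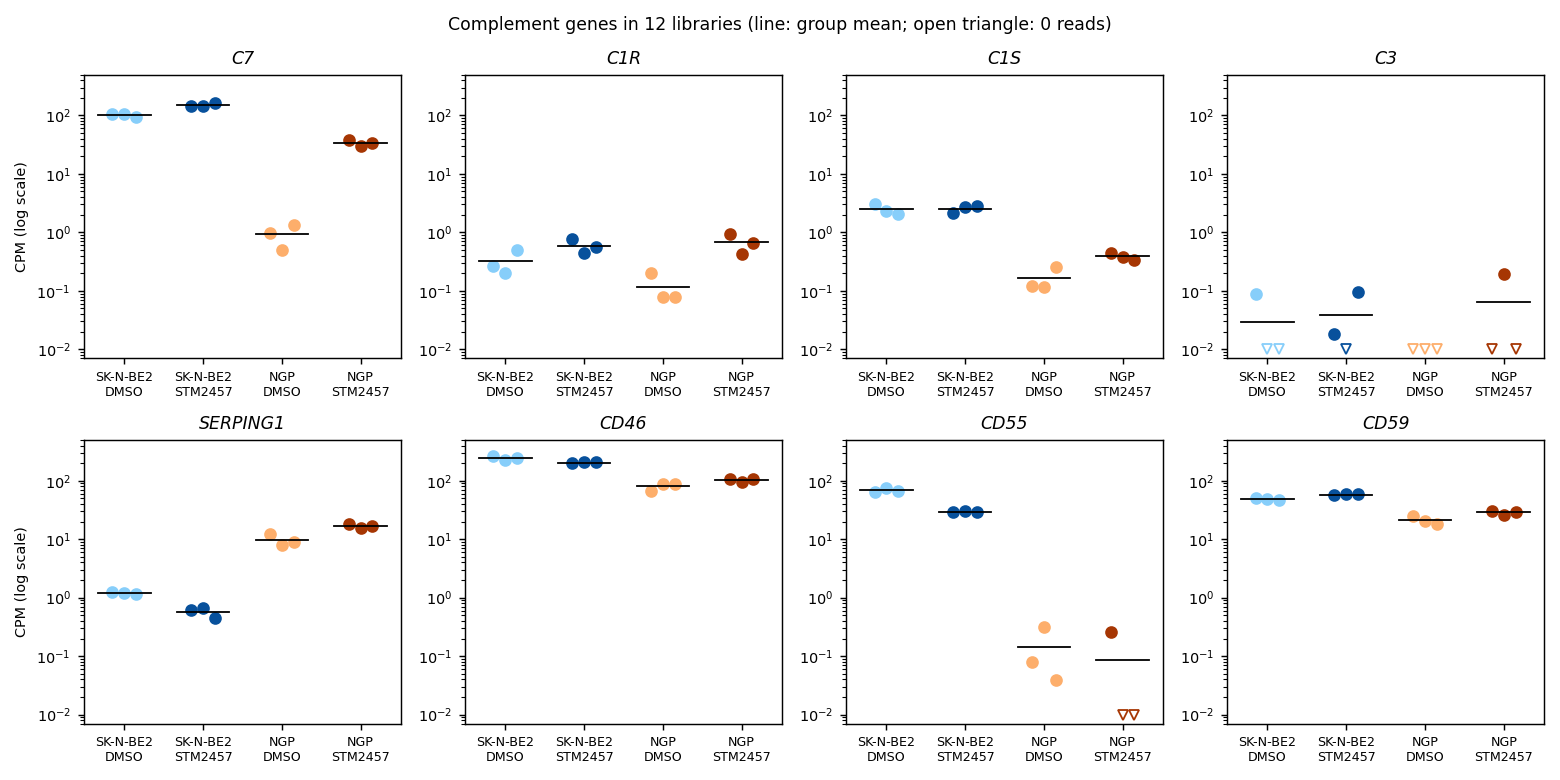
CPM (log scale) of the 8 complement genes in each of 12 libraries, with the group mean as a line and libraries without a read as open triangles. C7 sits between 0.509 and 1.32 CPM in NGP with DMSO and at 30.4 CPM or above in the other groups, while CD55 is at 29.0 CPM or above in SK-N-BE2 and at 0.313 CPM or below in NGP.

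C6, the component that binds before C7 in the same complex, lies 157472 bases from C7 on the opposite strand, by their canonical transcripts, with 1 other protein-coding gene, MROH2B, between them. No C6 read was found in NGP with DMSO, and 19 reads were found over the 3 NGP libraries with STM2457. Set against a floor of 3 reads over the group, that was 6.71-fold more. This ratio is no strict bound, since a fragment can add up to 2 reads. Of counts from 1 to 20, 72.1% to 75.4% were even in each library. In SK-N-BE2 the libraries held 0.996, 1.03 and 0.822 CPM of C6 with DMSO and 1.42, 1.56 and 1.43 CPM with STM2457, higher without overlap, but the log2 difference of 0.59 (SE 0.26) did not pass the test (edgeR adjusted p = 0.0715). C6 was thus low in all groups, and against the same floor it was 48.3-fold higher in SK-N-BE2 than in NGP with DMSO.

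The genes whose pattern was most like that of C7 were found by Pearson correlation of log2 CPM over the 12 libraries among 11583 genes. They were SMAD3 (r = 0.997), a transcription factor of TGF-beta signalling, RGS4 (r = 0.994), a brake on G protein signalling, LHFPL2 (r = 0.993), CISH (r = 0.991), a cytokine-induced SOCS family member, and AHNAK (r = 0.990), a large scaffold protein. These correlations describe 4 groups that share line, run and treatment, and carry no test. SMAD3, for example, was at 29.3 and 34.6 CPM in SK-N-BE2 with DMSO and STM2457, and at 1.77 and 15.5 CPM in NGP. All had their lowest group mean in NGP with DMSO, and CISH differed from C7 in SK-N-BE2, where its mean was 11.9 CPM with DMSO and 10.8 CPM with STM2457.

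**Figure D2:**
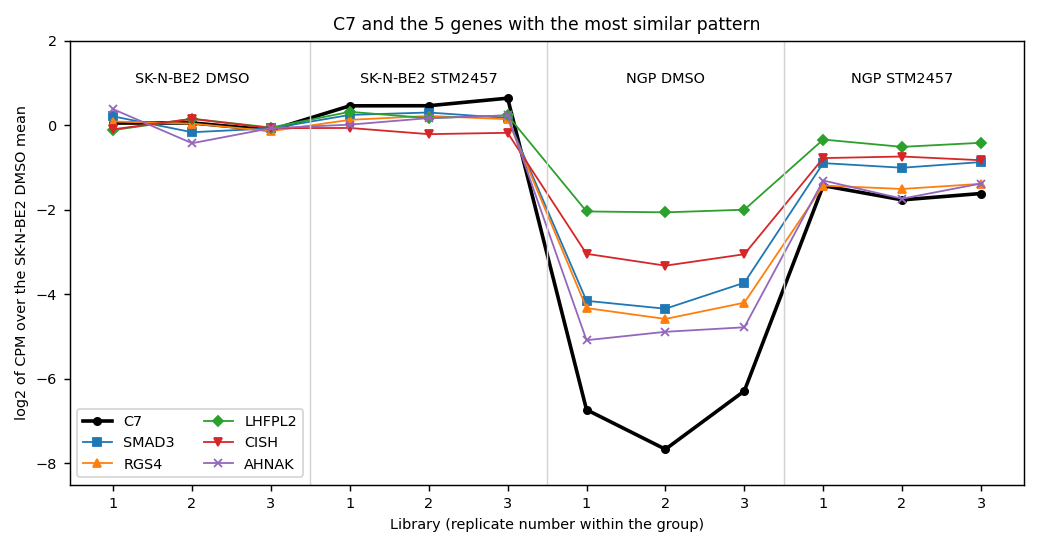
log2 ratio of CPM to the mean of the SK-N-BE2 DMSO libraries for C7 and the 5 genes most correlated with it, in each of 12 libraries. All 6 genes are lowest in NGP with DMSO, and C7 covers the widest range.

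The classical-pathway proteases were expressed at low levels in both lines. C1R, at chr12:7080214-7092540 on the minus strand, and C1S, at chr12:6988259-7071032 on the plus strand, are neighbours, with 9186 bases between their canonical transcripts. C1R held 0.262, 0.201 and 0.497 CPM in SK-N-BE2 with DMSO and 0.757, 0.449 and 0.552 CPM with STM2457. These groups overlapped, and the log2 difference of 0.83 (SE 0.44) did not pass the test (edgeR adjusted p = 0.128). In NGP, C1R held 0.199, 0.0782 and 0.0778 CPM with DMSO and 0.940, 0.428 and 0.670 CPM with STM2457. The NGP libraries with STM2457 all lay above those with DMSO, on 18 reads against 98, with a log2 fold change of 2.48 (SE 0.54) that became 3.06 without DMSO replicate 1. Of the C1R exons, 11.6% are shared on the same strand with C1RL, a related protease gene, so part of its count is uncertain. C1RL itself did not pass the test in NGP (log2 0.43, SE 0.37, edgeR adjusted p = 0.389).

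C1S held 3.09, 2.35 and 2.08 CPM in SK-N-BE2 with DMSO and 2.12, 2.68 and 2.84 CPM with STM2457. These groups overlapped fully, and the log2 difference was -0.02 (SE 0.22, edgeR adjusted p = 0.947), with a sign that changed when single libraries were left out. In NGP, C1S held 0.119, 0.117 and 0.253 CPM with DMSO and 0.449, 0.385 and 0.335 CPM with STM2457. These were few reads, 6, 6 and 13 with DMSO and 21, 18 and 17 with STM2457. All NGP libraries with STM2457 were above those with DMSO, a log2 fold change of 1.22 (SE 0.47) that became 1.67 without DMSO replicate 3.

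SERPING1 encodes C1 inhibitor, which inactivates C1r and C1s, and lies at chr11:57597387-57614848 on the plus strand. In SK-N-BE2 it held 1.26, 1.21 and 1.15 CPM with DMSO and 0.609, 0.664 and 0.457 CPM with STM2457. All treated libraries were below all controls, and SERPING1 fell by 1.10 on the log2 scale (SE 0.30, edgeR adjusted p = 0.00762). In NGP it held 12.4, 8.04 and 9.0 CPM with DMSO and 18.3, 15.5 and 16.6 CPM with STM2457. There the treated libraries all lay above the controls (log2 fold change 0.75, SE 0.18), so the sign was opposite in the lines. The difference between the lines was not tested because NGP was used for the choice. SERPING1 was the member whose level was highest in NGP with STM2457 and lowest in SK-N-BE2 with STM2457.

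C3, the component on which all routes meet, was almost absent. It lies at chr19:6677704-6730562 on the minus strand, and its reads numbered 5, 0 and 0 in SK-N-BE2 with DMSO, 1, 0 and 5 in SK-N-BE2 with STM2457, 0, 0 and 0 in NGP with DMSO and 0, 9 and 0 in NGP with STM2457. At this depth 3 reads in a group correspond to 0.0188 to 0.0208 CPM, and C3 did not pass the filter on low counts in any comparison. Its reads came from 4 of 12 libraries, and no change was detectable.

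The membrane regulators were the most abundant members in SK-N-BE2 beside C7, and they moved in different directions there. CD55, which speeds the decay of the enzymes that cleave C3 and C5, lies at chr1:207321376-207386804 on the plus strand. In SK-N-BE2 it held 64.3, 74.4 and 66.8 CPM with DMSO and 29.0, 30.3 and 29.4 CPM with STM2457. The groups were well apart, and CD55 fell to 0.421 times its level (log2 -1.25, SE 0.09, edgeR adjusted p = 1.30e-07). In NGP only 4, 16 and 2 reads were found with DMSO and 12, 0 and 0 with STM2457, so CD55 did not pass the filter there and its response could not be measured.

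CD46 is a cofactor for the cleavage of deposited C3 and C4 fragments and lies at chr1:207752057-207795513 on the plus strand. In SK-N-BE2 it held 261, 228 and 241 CPM with DMSO and 199, 207 and 207 CPM with STM2457, so all treated libraries were below all controls. CD46 fell by 0.29 on the log2 scale (SE 0.08, edgeR adjusted p = 0.00849), a call lost in a joint fit of all 12 libraries (edgeR adjusted p = 0.0787). In NGP it held 65.6, 88.7 and 88.5 CPM with DMSO and 108, 95.1 and 107 CPM with STM2457 (log2 fold change 0.33, SE 0.14). The NGP groups did not overlap on this scale, but they did in TPM (reads per exon length, scaled to sum to 1000000 in a library), at 27.3 to 45.6 with DMSO and 38.8 to 43.9 with STM2457. The SK-N-BE2 groups overlapped in TPM too, at 81.4 to 90.8 with DMSO and 75.2 to 81.8 with STM2457. Of the CD46 exons, 9.15% are shared with a gene on the other strand.

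CD59 blocks the last step of the membrane attack complex and lies at chr11:33703010-33736491 on the minus strand. In SK-N-BE2 it held 50.6, 47.9 and 45.9 CPM with DMSO and 56.4, 59.2 and 58.2 CPM with STM2457. All treated libraries were above all controls, and CD59 rose by 0.23 on the log2 scale (SE 0.08, edgeR adjusted p = 0.0271). That call was lost without DMSO replicate 3 or without any one of the STM2457 libraries, with edgeR adjusted p from 0.0526 to 0.0935, and in the joint fit (edgeR adjusted p = 0.0669). In NGP it held 24.7, 20.8 and 17.9 CPM with DMSO and 30.5, 25.9 and 29.6 CPM with STM2457 (log2 fold change 0.41, SE 0.14). In TPM the NGP groups overlapped, at 7.26 to 8.82 with DMSO and 8.72 to 10.1 with STM2457.

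**Figure D3:**
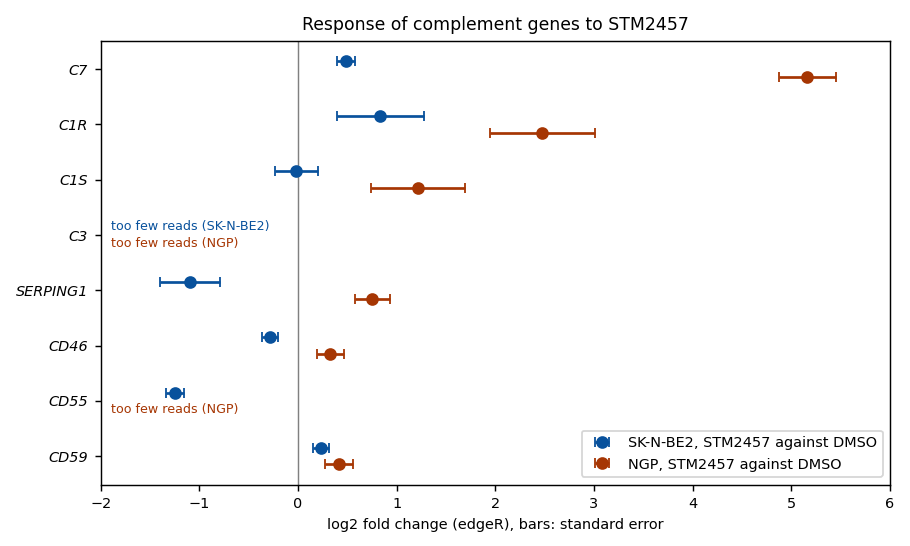
edgeR log2 fold change of STM2457 against DMSO with its standard error for the complement genes in SK-N-BE2 and NGP. In SK-N-BE2 the values run from -1.25 (CD55) to 0.83 (C1R), and in NGP from 0.33 (CD46) to 5.16 (C7).

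Of the 8 members, 7 passed the filter on low counts in SK-N-BE2 and 5 of them were called by edgeR: C7 and CD59 rose, and SERPING1, CD46 and CD55 fell. Over all genes tested in SK-N-BE2, 54.7% were called, so a call was common there and the count is not particular to these genes. In NGP, 6 members passed the filter, and the STM2457 libraries lay above the DMSO libraries for 6 members and below for 0. Over all genes tested in NGP, the replicates did not overlap with STM2457 higher for 28.4% and lower for 26.2%, and since NGP was used to choose C7 nothing is read from the members' count. Without DMSO replicate 1, the NGP library that stood apart, the log2 fold change was 5.19 for C7, 3.06 for C1R, 1.03 for C1S, 0.95 for SERPING1, 0.19 for CD46 and 0.54 for CD59. The signs were those of the full set, and the CD46 value was the one that shrank most in proportion. In bulk RNA, fewer cells that express a gene and less of its RNA per cell cannot be told apart.

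With DMSO the lines differed in most of these genes. Of the 7 members other than C7, 6 were tested between SK-N-BE2 and NGP with DMSO and 6 were called by edgeR, where 71.1% of all genes were called. CD55 was furthest apart, at 68.5 ± 5.26 CPM in SK-N-BE2 and 0.144 ± 0.148 CPM in NGP (SD, n = 3; log2 difference 8.87, SE 0.45, edgeR adjusted p = 3.15e-10). It did not pass the filter within NGP and entered this fit through its SK-N-BE2 counts, so no weight is put on its call. CD46 (log2 1.59, SE 0.11, edgeR adjusted p = 1.28e-08) and CD59 (log2 1.19, SE 0.11, edgeR adjusted p = 3.56e-07) were also higher in SK-N-BE2, as was C1S (log2 3.92, SE 0.34, edgeR adjusted p = 1.07e-07). In NGP with DMSO, C1S held only 6, 6 and 13 reads and C1R 10, 4 and 4. No weight is put on the calls of these genes either. SERPING1 alone of the tested members was lower in SK-N-BE2 (log2 -3.02, SE 0.19, edgeR adjusted p = 3.65e-09). C1R was higher in SK-N-BE2 (log2 1.42, SE 0.56, edgeR adjusted p = 0.0353), on few reads, and its call was lost without SK-N-BE2 DMSO replicate 3 (edgeR adjusted p = 0.166), NGP DMSO replicate 2 (edgeR adjusted p = 0.109) or NGP DMSO replicate 3 (edgeR adjusted p = 0.113). Without NGP DMSO replicate 1 all 6 were called as well. C7, not tested here, differed by 6.78 on the log2 scale in the same direction.

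Set per exon length, CD46 was the most abundant member in all 4 groups, at 85.4 and 77.9 TPM in SK-N-BE2 with DMSO and STM2457 and at 38.8 and 42.1 TPM in NGP. In SK-N-BE2 with STM2457 its libraries overlapped those of C7, at 73.6 TPM on average. In SK-N-BE2 with DMSO it was followed by C7 at 47.3, CD55 at 35.5 and CD59 at 13.9 TPM. In NGP with DMSO the next were SERPING1 at 11.6 and CD59 at 8.19 TPM, with C7 at only 0.573 TPM. With STM2457, C7 in NGP reached 18.1 TPM, next to SERPING1 at 17.3 TPM, and the libraries of these 2 genes overlapped in TPM. C1R, C1S and C3 stayed at a mean of 1.30 TPM or below in each group. The messages of the members also differ in GGACT, the commonest letters around N6-methyladenosine sites: C1R held 1.61 per kilobase of its canonical transcript, CD46 1.51, C3 1.15, C1S 1.12, SERPING1 1.09, C7 0.875, CD59 0.529 and CD55 0.386, against a median of 0.923 over 18987 transcripts. Methylation was not measured in these libraries.

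**Figure D4:**
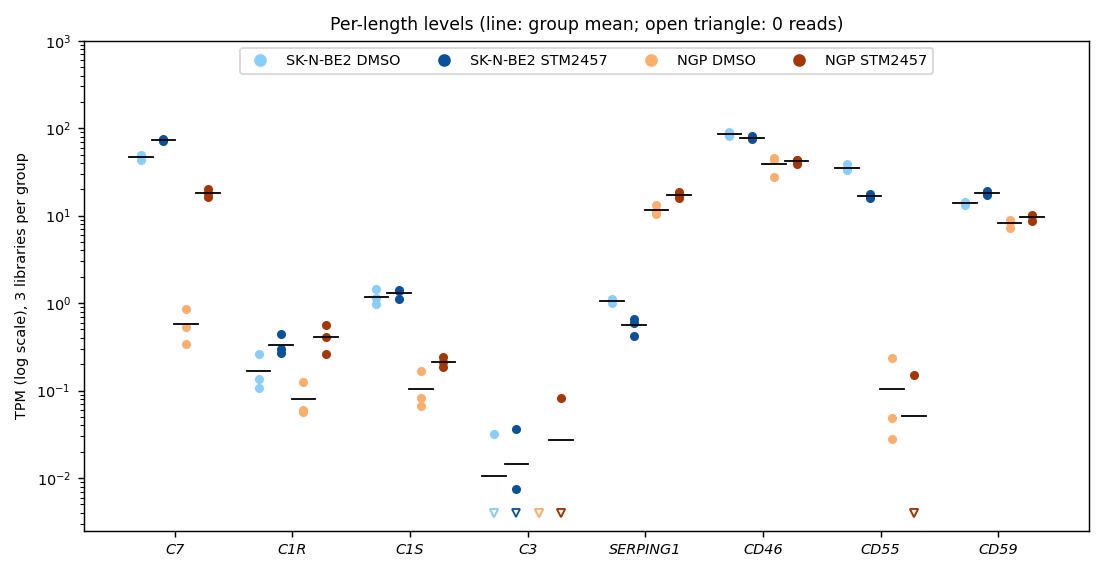
TPM (log scale) of the 8 complement genes in each library of the 4 groups, with the group mean as a line and libraries without a read as open triangles. CD46 is the highest member on average in all groups, and C3 is the lowest or near it.

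The other complement genes were mostly silent. Of 57 listed, 14 reached a mean of 1 CPM in at least 1 group, and 12 had no read in any library, among them C1QA, C8A, C9 and CFB. In SK-N-BE2, 21 were tested, of which 4 rose and 4 fell, where 54.7% of all genes were called, with a median log2 fold change of -0.13 against -0.02 over all genes. PTX3, a soluble pattern receptor that binds C1q, rose from 0.932 ± 0.270 to 2.66 ± 0.507 CPM (SD, n = 3; log2 1.47, SE 0.27, edgeR adjusted p = 0.000466). C8G, a subunit of the membrane attack complex, rose by 1.45 on the log2 scale (SE 0.35, edgeR adjusted p = 0.00295), and PROS1, the gene of protein S that binds the C4b-binding protein, rose by 0.39 (SE 0.10, edgeR adjusted p = 0.00582). CLU, the gene of clusterin, an inhibitor of the terminal complex, fell from 119 ± 9.65 to 90.9 ± 0.797 CPM (log2 -0.42, SE 0.08, edgeR adjusted p = 0.000768). CFP, the gene of properdin, which stabilises the alternative-route enzyme, fell (log2 -1.18, SE 0.25, edgeR adjusted p = 0.00124), but 49.0% of its exons are shared with another gene on the same strand and its count is uncertain. C3AR1 also rose and C5AR1 also fell, both below 1 CPM. C1QBP was called as lower (log2 -0.23, SE 0.09, edgeR adjusted p = 0.0440), but its groups overlapped. That call was lost with DESeq2 size factors, with a replicate block, in the joint fit and without any one library other than DMSO replicate 1 (edgeR adjusted p from 0.0502 to 0.199).

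In NGP, 15 of the 57 were tested and 4 were called by edgeR, where 41.7% of all genes were called. The median log2 fold change was -0.04 against -0.03 over all genes. PROS1 rose from 4.12 ± 0.772 to 8.87 ± 0.0293 CPM (SD, n = 3; log2 1.08, SE 0.17, edgeR adjusted p = 0.00141). SUSD4, a membrane protein that inhibits complement, fell from 36.1 ± 3.11 to 22.0 ± 1.56 CPM (log2 -0.74, SE 0.12, edgeR adjusted p = 0.00145). C8G also rose (log2 2.13, SE 0.65, edgeR adjusted p = 0.0280) and ITGB2 also fell (log2 -2.84, SE 0.80, edgeR adjusted p = 0.0202), both below 1 CPM. The C8G call was lost without DMSO replicate 2 or 3 or STM2457 replicate 1 or 2 (edgeR adjusted p from 0.0734 to 0.104), and the ITGB2 call without DMSO replicate 2 or STM2457 replicate 1 or 3 (edgeR adjusted p from 0.0506 to 0.0799). The count of 4 was 2 with a filter of 1 CPM, 2 with halved counts and 9 in the joint fit. Between the lines with DMSO, 25 were tested, 15 were higher in SK-N-BE2 and 6 lower, where 71.1% of all genes were called. C6, CD93, MASP1 and C3AR1 had no read in NGP with DMSO and entered this fit through SK-N-BE2. The split between directions thus depends in part on the filter, and nothing is read from it. The most abundant of the 25 in SK-N-BE2 was COLEC11, a lectin that starts the lectin route, named after its values were seen. It was at 254 CPM against 5.53 CPM in NGP (log2 5.52, SE 0.17, edgeR adjusted p = 2.20e-12). C4A and C4B, near-identical copies, are uncertain because reads that fit both were not counted.

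**Figure D5:**
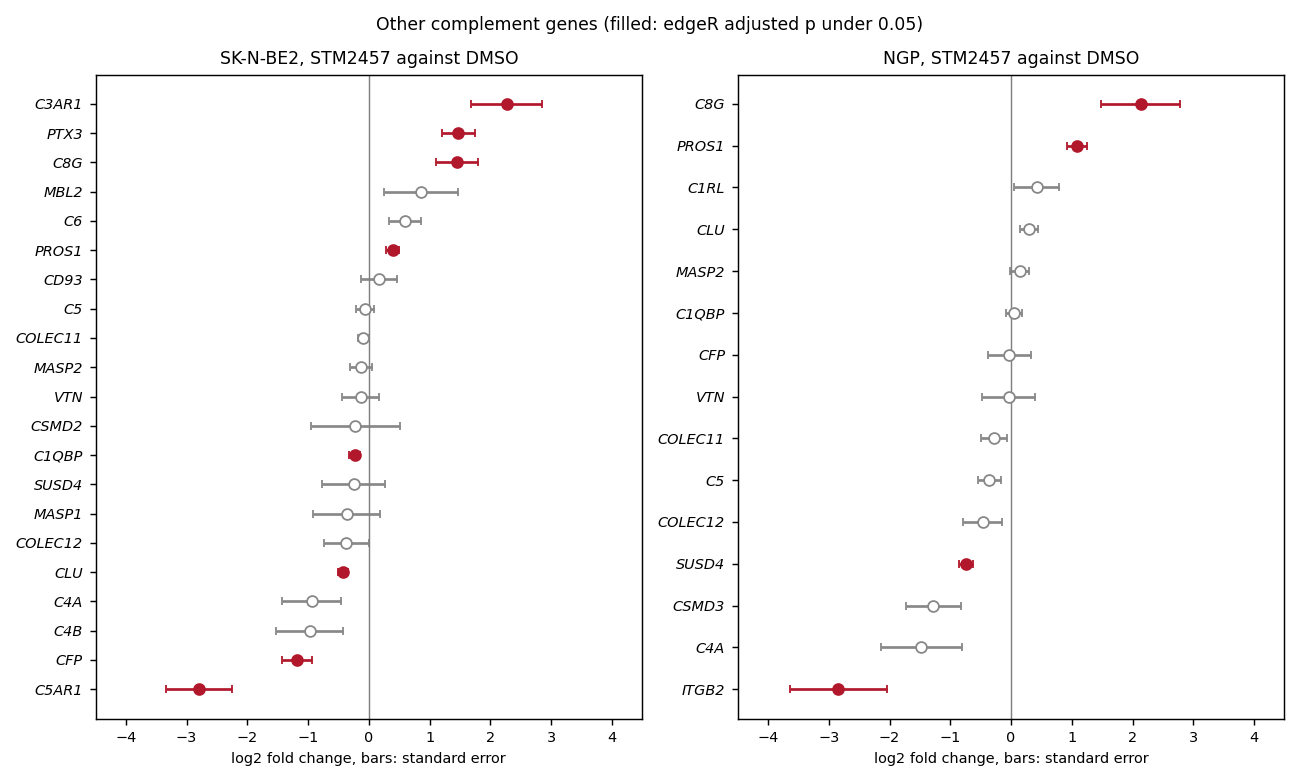
edgeR log2 fold change of STM2457 against DMSO with its standard error for the other complement genes that passed the filter, 21 in SK-N-BE2 and 15 in NGP. Filled points have an adjusted p under 0.05: 4 rose and 4 fell in SK-N-BE2, and 2 rose and 2 fell in NGP.

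Complement genes are known targets of interferon and interleukin-6 signalling, so 24 genes of cytokine signalling were also followed. They include genes outside these routes, such as TNFRSF1A and IL1R1. In SK-N-BE2 all 24 were tested, 5 rose and 8 fell, where 54.7% of all genes were called. In NGP 22 were tested, 8 rose and 7 fell, where 41.7% of all genes were called. CEBPB, a transcription factor of the acute-phase response, fell in SK-N-BE2 from 144 ± 64.1 to 17.9 ± 5.43 CPM (SD, n = 3; log2 -3.04, SE 0.27, edgeR adjusted p = 9.65e-07) and in NGP from 106 ± 24.2 to 17.4 ± 7.69 CPM (log2 -2.63, SE 0.30, edgeR adjusted p = 0.000305). IRF1, a transcription factor induced by interferon gamma, fell in both lines, at -2.46 on the log2 scale (SE 0.20) for SK-N-BE2 and -2.74 (SE 0.20) for NGP, with edgeR adjusted p of 5.06e-07 and 3.22e-05. The exons of both overlap genes on the other strand, for 12.6% of CEBPB and 22.1% of IRF1, and counting ignored strand, so their values are uncertain. In SK-N-BE2, NFKB1 rose (log2 0.44, SE 0.09, edgeR adjusted p = 0.000968), TNFRSF1A, a receptor of tumour necrosis factor, fell (log2 -0.73, SE 0.09, edgeR adjusted p = 1.66e-05), and OSMR, the oncostatin M receptor, rose (log2 0.94, SE 0.29, edgeR adjusted p = 0.0153), a call lost without STM2457 replicate 2 (edgeR adjusted p = 0.0994) and in the joint fit (edgeR adjusted p = 0.0561).

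In NGP the largest rise of this list among genes of at least 1 CPM was SOCS3, a feedback inhibitor of cytokine receptors, from 0.249 ± 0.129 to 5.08 ± 0.425 CPM (SD, n = 3; log2 4.31, SE 0.33, edgeR adjusted p = 3.88e-05). Its NGP libraries with DMSO held only 20, 8 and 10 reads, so the size of this rise is uncertain. STAT2 rose from 18.0 ± 0.460 to 42.0 ± 3.31 CPM (log2 1.20, SE 0.11, edgeR adjusted p = 9.40e-05). CEBPD fell from 36.5 ± 6.99 to 7.63 ± 4.71 CPM (log2 -2.28, SE 0.37, edgeR adjusted p = 0.00176). IRF9, the partner of STAT2, rose by 1.13 (SE 0.39, edgeR adjusted p = 0.0469), with 42.2% of its exons shared with other genes on the same strand and a call lost without any one of 5 libraries (edgeR adjusted p from 0.0942 to 0.105). Without DMSO replicate 1 its log2 fold change was 1.60, and PROS1, SUSD4, SOCS3, STAT2, CEBPB, CEBPD and IRF1 were still called. SOCS3 and STAT2 did not pass the test in SK-N-BE2, and the difference between the responses passed the test for both (SK-N-BE2 minus NGP, log2 -4.46 with SE 0.53 and edgeR adjusted p = 3.04e-05 for SOCS3, log2 -1.06 with SE 0.17 and edgeR adjusted p = 0.000382 for STAT2). The difference between the responses was called for 4 of the 25 other complement genes (PTX3, C6, CLU and PROS1) and for 8 of the 24 cytokine signalling genes. Over all genes, 30.9% were called. PTX3 and C6 did not pass the filter within NGP and entered this fit through SK-N-BE2, so no weight is put on their calls.

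Markers of other cell types also differed between the treatments. Over all genes tested in NGP, the replicates did not overlap with STM2457 higher for 28.4% and lower for 26.2%. That share was not computed for SK-N-BE2, where 54.7% of all genes were called by edgeR. Of 6 fibroblast markers, 5 lay higher with STM2457 in both lines without overlap, and their summed level was 106 to 121 CPM with DMSO and 194 to 209 CPM with STM2457 in SK-N-BE2, and 189 to 209 and 452 to 512 CPM in NGP. The exception was COL1A2, at 0.117 CPM or below in each library. Of the other markers, COL1A1, for example, was at 6.78 to 9.88 CPM with DMSO and 17.9 to 18.7 CPM with STM2457 in SK-N-BE2. In NGP it was at 26.7 to 33.5 CPM with DMSO and 120 to 130 CPM with STM2457. The summed level of 5 endothelial markers was 16.9 to 22.5 CPM with DMSO and 11.9 to 14.2 CPM with STM2457 in SK-N-BE2, and 0.0782 to 0.272 CPM and 2.62 to 3.80 CPM in NGP. The 7 blood-cell markers summed to between 5.80 and 8.84 CPM in every library, of which CD68 alone made 3.72 to 7.37 CPM. Without overlap, 2 of the 7 lay higher and 1 lower with STM2457 in SK-N-BE2, and 1 higher and 1 lower in NGP. The 4 Schwann-cell markers found summed to 3.15 to 3.62 CPM with DMSO and 5.18 to 5.80 CPM with STM2457 in SK-N-BE2. In NGP they summed to 1.13 to 1.35 and 0.300 to 0.641 CPM. The part of these changes in the complement results was not tested.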

How the data were processed

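Per the labels' protocols, libraries came from poly(A) RNA by way of a SMART cDNA kit. The authors deposited whole-number read counts per gene, not normalized, made per the file headers with featureCounts 2.0.5 on exons grouped by gene name (GENCODE 33, protein-coding). Strand was ignored, multi-mapping reads were not counted, and a fragment can add up to 2. The submitters' processing notes name FastQC 0.11.5, Trimmomatic 0.36, HISAT2 2.1.0, GRCh38 and, unlike the headers, Subread 1.5.3. Exons were compared with GENCODE 44.

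Here edgeR 4.0.16 (R 4.3.3) was run on TMM-scaled counts of the genes that filterByExpr kept at a minimum count of 10. Its two-sided quasi-likelihood test was used, with p-values adjusted by Benjamini and Hochberg over all genes tested and a threshold of 0.05. Each line was fitted on its 6 libraries, and the comparison of lines with DMSO and the difference between responses on all 12. A standard error is the absolute log2 fold change over the root of its F. TPM was computed from counts and exon lengths. No spike-in was used, so changes are relative. Fits were tested on simulated data. DESeq2 1.42.0 was an alternative.

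The members and lists were chosen with earlier results of these data known. Named were all members, C6 and C1RL, which lie near C7 and C1R, the 5 genes most like C7 (at least 5 CPM in a group), and, from each list and line, up to 3 called genes per direction whose replicates did not overlap and whose higher group averaged at least 1 CPM. C3AR1, C5AR1, C1QBP, ITGB2 and COLEC11, and in NGP C8G, CLU and NFKB1, were named outside this rule after their values were seen. A gene that the rule names is not reported here.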

Additional observations from a re-analysis of the deposited data

Results flagged for a closer look

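SERPING1 and CD46 moved in opposite directions in the 2 lines: all SK-N-BE2 libraries with STM2457 lay below the controls (log2 fold change -1.10 for SERPING1 and -0.29 for CD46), and all NGP libraries with STM2457 lay above them (0.75 and 0.33). These differences were not tested, and in TPM the CD46 groups overlapped in both lines.

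The list genes below were called in edgeR's test of the difference between the responses, given as SK-N-BE2 minus NGP on the log2 scale. The difference was 6.00 for PTX3, on 8 NGP reads with DMSO and 0 with STM2457, and -5.16 for C6, on 0 and 19 NGP reads, so both fitted sizes depend on the prior count and are no bounds. Neither gene passed the filter within NGP, so no weight is put on these calls. The difference for the other genes follows. It was -0.68 for PROS1, which rose in both lines, and -0.71 for CLU, which fell in SK-N-BE2 and did not pass the test in NGP (log2 0.30, SE 0.15, edgeR adjusted p = 0.133). It was -0.78 for TNFRSF1A and 0.78 for NFKB1, which rose in SK-N-BE2 and was called as lower in NGP (log2 -0.33, SE 0.11, edgeR adjusted p = 0.0449). The NGP call of NFKB1 was lost with DESeq2 size factors, with no filter, with a replicate block and without any one library other than DMSO replicate 1 (edgeR adjusted p from 0.0559 to 0.160). For SOCS3 the difference was -4.46, a size that rests on few NGP reads with DMSO. For STAT2 it was -1.06 and for CEBPD 1.88. The CEBPD call was lost without SK-N-BE2 DMSO replicate 2, SK-N-BE2 STM2457 replicate 1 or NGP STM2457 replicate 1 (edgeR adjusted p from 0.0507 to 0.0994).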

How the results depend on the processing

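Alternatives were DESeq2 or its size factors, no filter or one of 1 CPM on the mean, halved counts, a joint fit, leaving out each library and a replicate block. The count of members called in SK-N-BE2 was 5 and became 3 in the joint fit. With the filter of 1 CPM it was 4, since SERPING1 did not pass that filter. The count of other complement genes called was 8 in SK-N-BE2 and 5 with the filter of 1 CPM, and in NGP it was 4, becoming 2 with that filter, 2 with halved counts and 9 in the joint fit. The cause was not tested. C1S in SK-N-BE2, not called, had a log2 difference of 0.018 in the joint fit and -0.14 to 0.16 with single libraries left out. With single libraries left out, all genes called numbered 6497 to 7849 in SK-N-BE2 and 3816 to 7897 in NGP, and members called in SK-N-BE2 4 to 5. Same-numbered replicates did not deviate together (correlations of -0.06 to 0.09 in SK-N-BE2 and -0.07 to 0.02 in NGP), so the numbers are not taken to pair the samples. With the replicate block, SK-N-BE2 had 7522 called genes and NGP 5026, against 7665 and 5671, and in SK-N-BE2 the count of called members was 5. Depth limits C3, C1R, and CD55 and C1S in NGP, and 3 libraries per group limit the rest.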
